A study of Mus musculus with 4 samples.

Results

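*Etv1*, *Etv4*, *Etv5*, *Spry1*, *Spry2*, *Spry4*, *Spred1*, *Spred2*, *Dusp6* and *Egr1* are genes whose transcripts report the output of receptor tyrosine kinases and ERK. They were chosen by name, from the PEA3 transcription factors, the Sprouty and Spred inhibitors, an ERK phosphatase and an immediate early factor. The choice was made with the mutant and control values of these same libraries known. All 10 were found among the 56748 genes of the deposited table, and all 10 were among the 15997 genes that were tested. Because the members were selected on this contrast, their values are given as a description. Counts of members past a threshold are given too, and nothing is read from them.

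The data were RNA-seq of polyadenylated RNA from mouse lenses at 10 to 12 days of age. Of the 4 libraries, 2 came from *Fsp1-cre;Pdgfrb*+/D849V lenses (mutant) and 2 from control lenses, labelled *Fsp1-cre;Pdgfrb*+/+. The *Pdgfrb* D849V allele encodes a constitutively active form of PDGFRβ, a receptor tyrosine kinase, from the gene's own locus once Cre has acted. The mice were on an FVB/N background with a tdTomato Cre reporter. The paper places robust reporter activity in the lens epithelium as early as week 4, later than the age sampled here. The paper also imaged the reporter at week 2, nearer that age, but its text describes no result for it. It adds that the reporter alone does not establish expression of the mutant receptor, which it assumes to follow once Cre is induced. *Fsp1-cre* expresses Cre from the promoter of *Fsp1* (*S100a4*), a gene active in fibroblasts and other cells, so the mutation is not restricted to the lens. Lenses of several mice were pooled for every library, and the sources used here do not say how mice were divided between the pools of a group. The study's methods describe control pools that mixed *Fsp1-cre;Pdgfrb*+/+ mice with *Pdgfrb*+/+ and *Pdgfrb*+/D849V mice without Cre, which the labels do not show. Any spread between the libraries of a group is therefore the spread between pools.

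In the ERK pathway, an activated receptor turns on Ras, which passes the signal through Raf and MEK to ERK, and ERK phosphorylates transcription factors. Among the genes switched on are those that damp the same signal: Sprouty and Spred proteins act between the receptor and Raf, and DUSP6 removes phosphate from ERK itself. The PEA3 factors ETV1, ETV4 and ETV5 are ETS family proteins whose transcripts are widely used as a readout of FGF and ERK activity. In the lens, FGF and ERK signalling is known for its part in epithelial proliferation and fibre cell differentiation, and Sprouty and Spred proteins for restraining it.

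*Etv5* and *Spry2* had the most negative fold changes of the 10 genes, so the sequences around their transcription starts are shown. Windows from RefSeq (build GRCm38.p6) run from 250 bases before to 50 bases after an annotated start and were read 5′ to 3′ on the gene's strand. In these lines, capitals mark AGGAAG, a purine-rich sequence of the kind bound by ETS factors, searched on both strands. Shorter GGAA stretches, which the downstream *Etv5* window and the *Spry2* window also hold, are not marked. The *Etv5* windows lie on the minus strand at chr16:22439521-22439820 and chr16:22438319-22438618, and the *Spry2* window lies on the minus strand at chr14:105896770-105897069.
Etv5, upstream start: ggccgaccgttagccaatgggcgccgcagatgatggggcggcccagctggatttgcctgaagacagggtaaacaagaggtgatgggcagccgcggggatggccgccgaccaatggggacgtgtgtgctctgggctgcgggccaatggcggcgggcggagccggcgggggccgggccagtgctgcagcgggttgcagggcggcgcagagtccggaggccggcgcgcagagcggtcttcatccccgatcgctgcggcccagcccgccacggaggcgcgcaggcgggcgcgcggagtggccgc
Etv5, downstream start: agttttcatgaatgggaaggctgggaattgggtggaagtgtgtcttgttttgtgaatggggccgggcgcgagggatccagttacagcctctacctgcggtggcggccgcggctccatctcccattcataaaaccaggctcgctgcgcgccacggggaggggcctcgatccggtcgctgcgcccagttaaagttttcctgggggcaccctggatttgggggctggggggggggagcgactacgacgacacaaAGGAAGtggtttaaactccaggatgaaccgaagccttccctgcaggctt
Spry2: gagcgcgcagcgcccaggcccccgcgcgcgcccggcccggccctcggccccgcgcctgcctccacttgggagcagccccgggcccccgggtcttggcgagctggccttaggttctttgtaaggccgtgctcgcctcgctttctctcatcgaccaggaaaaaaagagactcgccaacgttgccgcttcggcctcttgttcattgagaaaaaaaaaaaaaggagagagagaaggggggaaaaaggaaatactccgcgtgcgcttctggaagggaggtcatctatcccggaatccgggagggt

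The upstream *Etv5* window and the *Spry2* window held no AGGAAG, and the downstream *Etv5* window held 1. A window was given for 7 members, with 2 each for *Etv1* and *Etv5*, which made 9 windows. AGGAAG was in 4 of the 9, against 35.4% of all 32851 windows of this length. CCAAT, the core of the CCAAT box, was in 5 of the 9 on either strand, against 37.4% of all windows. The upstream *Etv5* window held 3 copies of CCAAT. The CArG box, the site of serum response factor, was in 0 of the 9, against 1.63% of all windows. These matches describe the letters of the windows and were not tied to any expression value. *Etv4*, *Spry4* and *Egr1* had no window.

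Expression is given as FPKM as deposited, fragments per kilobase of gene length divided by a denominator for each library. Whole reads could be recovered from the FPKM of every gene, to within 0.02 of a read. They gave between 18561682 and 18878768 reads per library. The denominator was 0.944 and 1.05 times these reads in mutant replicates 1 and 2. In control replicates 1 and 2 it was 1.05 and 0.987 times, so it was not the plain library size. Crystallin genes took 58.6% to 62.9% of the recovered reads. All 6 lens epithelial markers were above 0 in every library. Of 10 lens fibre markers, 9 were above 0 in every library, and *Lim2* was listed at 0 in all 4. *Pdgfrb* itself had 2.36 and 2.16 FPKM in mutant replicates 1 and 2 and 2.25 and 1.79 FPKM in control replicates 1 and 2. Those groups overlapped, and FPKM cannot tell the D849V transcript from the wild-type one. *S100a4*, whose promoter drives Cre, had 3.84 and 4.37 FPKM in the mutant libraries and 2.91 and 1.21 FPKM in the control libraries (log2 fold change 1.08 ± 0.40 (SE), limma adjusted p = 0.783).

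The levels of the 10 genes spanned a wide range. *Spry1*, *Etv5* and *Spry2* were the 3 highest in each of the 4 libraries. *Spred1* and *Dusp6* held places 4 and 5, and *Spred2* held place 6 in every library. *Etv1*, *Egr1*, *Etv4* and *Spry4* filled the last 4 places, each below 0.5 FPKM in every library. Among all genes tested, the mean FPKM of *Etv5* lay at percentile 85.0 and that of *Spry4* at percentile 8.83. Fewer than 100 reads were counted in every library for 5 members, and 4 members had at least 100 reads in every library.

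**Figure D1:**
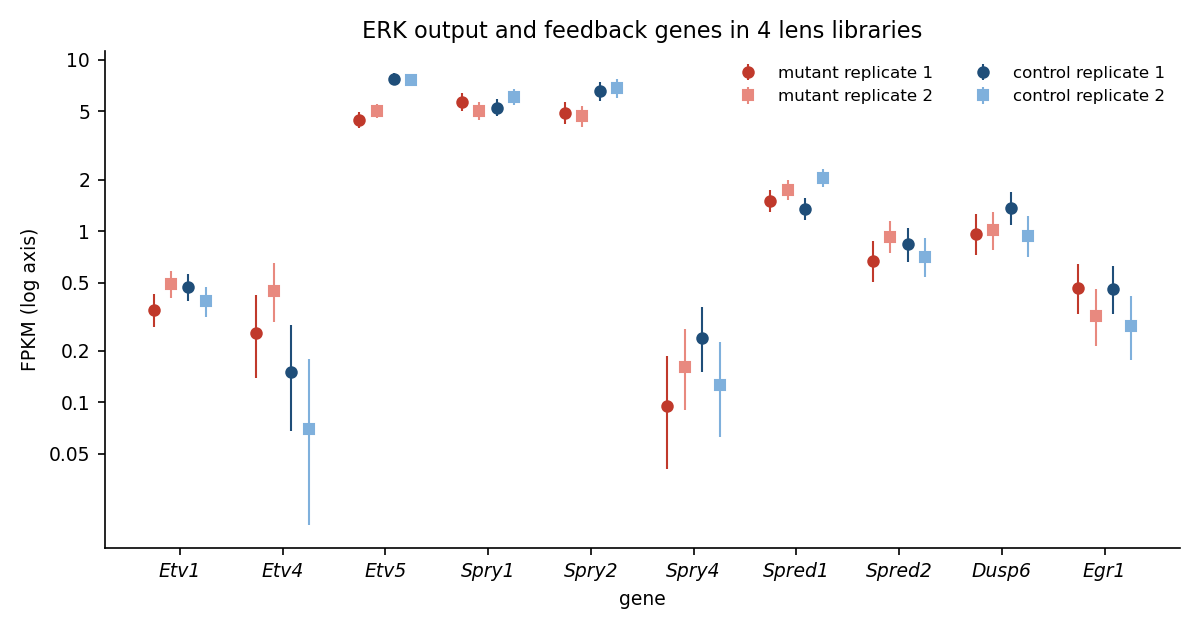
FPKM (log axis) of the 10 genes in each of the 4 libraries, with 1 point per library and exact Poisson 95% intervals of its reads as bars. *Spry1*, *Spry2* and *Etv5* lie highest, and both mutant points lie on one side of both control points for *Etv5*, *Spry2* and *Etv4* only, with overlapping intervals for *Etv4*.

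*Etv5* encodes a PEA3 factor and was the most abundant PEA3 transcript (ENSMUSG00000013089, chromosome 16, 22200059 to 22258469, minus strand, in the positions of the deposited table, build mm39 per the labels). It had 4.48 and 5.04 FPKM in mutant replicates 1 and 2 and 7.72 and 7.66 FPKM in control replicates 1 and 2. The values rested on 328 and 405 reads in the mutant libraries and on 616 and 579 reads in the control libraries. Both mutant libraries were below both control libraries. Exact Poisson 95% intervals, which cover counting error only, ran from 4.01 to 5.0 and from 4.56 to 5.56 FPKM in the mutant libraries. In the control libraries they ran from 7.12 to 8.36 and from 7.04 to 8.30 FPKM, so no mutant interval met a control interval. The mutant mean was 4.76 ± 0.394 FPKM (SD, n = 2) and the control mean 7.69 ± 0.0462 FPKM (SD, n = 2). The mutant mean was 62.0% of the control mean. On the log2(FPKM + 0.1) scale, which understates the change of low genes, the fold change of *Etv5* was -0.68 ± 0.11 (SE), at percentile 5.26 of all genes tested. Leaving out each library in turn gave -0.76 to -0.60. In whole lens tissue, fewer cells that transcribe a gene and less RNA per cell cannot be told apart.

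The other PEA3 factors had low levels. *Etv1* (ENSMUSG00000004151, chromosome 12, 38829379 to 38920483, plus strand) had 0.346 and 0.488 FPKM in the mutant libraries and 0.472 and 0.388 FPKM in the control libraries. Its groups overlapped (log2 fold change -0.04 ± 0.28 (SE)), and its sign changed when single libraries were left out (-0.24 to 0.15). *Etv4* (ENSMUSG00000017724, chromosome 11, 101660568 to 101676197, minus strand) had 0.253 and 0.444 FPKM in the mutant libraries and 0.149 and 0.0699 FPKM in the control libraries. It was the only member with both mutant libraries above both control libraries, on 14 and 27 reads against 9 and 4 reads. The counting interval of mutant replicate 1, from 0.138 to 0.424 FPKM, overlapped those of control replicate 1, from 0.0682 to 0.283 FPKM, and control replicate 2, from 0.0190 to 0.179 FPKM. That of mutant replicate 2, from 0.293 to 0.646 FPKM, lay above both. The log2 fold change of *Etv4* was 1.09 ± 0.45 (SE), with 0.28 at a pseudocount of 1 and 1.62 at a pseudocount of 0.01. *Etv5* and *Etv4* thus had fold changes of opposite sign. Markers of macrophages were also higher in the mutant libraries. Their summed level was 1.75 and 1.84 FPKM in the mutant and 0.788 and 0.512 FPKM in the control libraries, on 47 and 57 against 26 and 21 reads. Of 7 markers, 5 were higher in both mutant libraries, where 18.2% of all genes tested had this order, but only 3 of the 7 passed the filter on low values. Their part in the *Etv4* values was not tested.

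The PEA3 factors were also set against each other within each library, which removes any scaling between libraries. The ratio of *Etv5* to *Etv1* FPKM was 13.0 and 10.3 in the mutant libraries and 16.4 and 19.8 in the control libraries. The ratio of *Etv5* to *Etv4* FPKM was 17.7 and 11.3 in the mutant libraries against 51.8 and 109.5 in the control libraries, where *Etv4* rested on 9 and 4 reads. Both ratios were lower in both mutant libraries. Their shared numerator, *Etv5*, was itself lower there, so the ratios restate the values above and add no separate evidence. *Etv5* stayed more than 10 times the level of either relative in every library.

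The Sprouty genes encode membrane-associated inhibitors that intercept receptor signalling upstream of ERK. *Spry2* (ENSMUSG00000022114, chromosome 14, 106129381 to 106134253, minus strand) had 4.89 and 4.70 FPKM in the mutant libraries and 6.55 and 6.84 FPKM in the control libraries, on 182 and 192 against 266 and 263 reads. Both mutant libraries were below both control libraries. The counting intervals were 4.21 to 5.66 and 4.06 to 5.41 FPKM in the mutant and 5.79 to 7.39 and 6.03 to 7.71 FPKM in the control libraries, again without overlap. Means were 4.8 ± 0.136 FPKM (SD, n = 2) in mutant and 6.70 ± 0.199 FPKM (SD, n = 2) in control lenses, so that the mutant mean was 71.6% of the control mean. The log2 fold change of *Spry2* was -0.47 ± 0.10 (SE), with -0.50 to -0.44 when each library was left out. The percentile of *Spry2* among all genes tested was 8.75.

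*Spry1* (ENSMUSG00000037211, chromosome 3, 37694096 to 37698747, plus strand) had 5.69 and 5.04 FPKM in the mutant and 5.27 and 6.09 FPKM in the control libraries. At a level like that of *Spry2*, its groups overlapped and its mutant mean was 94.5% of its control mean (log2 fold change -0.08 ± 0.13 (SE)). *Gm42922*, which lies antisense to *Spry1*, had 5 to 8 reads per library, and *Spry1* had 287 to 326. *Spry4* (ENSMUSG00000024427, chromosome 18, 38719300 to 38734468, minus strand) had 0.0944 and 0.161 FPKM in the mutant and 0.238 and 0.125 FPKM in the control libraries. Its groups overlapped on 8 to 22 reads per library (log2 fold change -0.29 ± 0.49 (SE)).

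Ratios to *Spry1* within a library restate these differences free of scaling between libraries. *Spry1* was taken as the reference after its overlapping groups were seen, so the ratios add no separate evidence. The ratio of *Etv5* to *Spry1* FPKM was 0.787 and 0.999 in the mutant libraries and 1.46 and 1.26 in the control libraries. The ratio of *Spry2* to *Spry1* was 0.859 and 0.932 in the mutant libraries and 1.24 and 1.12 in the control libraries. *Etv5* was the highest of the 10 genes in both control libraries, whereas *Spry1* was the highest in both mutant libraries. The ratio of *Etv5* to *Spry2* had a narrower gap, at 0.917 and 1.07 for mutant replicates 1 and 2 against 1.18 and 1.12 for control replicates 1 and 2.

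The Spred genes encode relatives of Sprouty that hold neurofibromin at the membrane and so lower Ras activity. *Spred1* (ENSMUSG00000027351, chromosome 2, 116951855 to 117012760, plus strand) had 1.5 and 1.74 FPKM in the mutant and 1.35 and 2.05 FPKM in the control libraries. Its lowest and highest values were both control libraries, whose counting intervals, 1.16 to 1.56 and 1.80 to 2.31 FPKM, did not overlap. The spread between the control pools was thus larger than counting error, and the log2 fold change was -0.04 ± 0.23 (SE). *Spred2* (ENSMUSG00000045671, chromosome 11, 19874375 to 19974026, plus strand) had 0.668 and 0.929 FPKM in the mutant and 0.835 and 0.705 FPKM in the control libraries (log2 fold change 0.04 ± 0.23 (SE)). *Spred2* and *Etv1* were each higher in mutant replicate 2 and control replicate 1 than in the other two libraries. The same libraries were higher in *Xist* (13.1 and 15.6 FPKM against 7.62 and 5.56 FPKM). The part of pool makeup in the *Spred2* and *Etv1* values was not tested.

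*Dusp6* (ENSMUSG00000019960, chromosome 10, 99099093 to 99103351, plus strand) encodes the cytoplasmic phosphatase of ERK. It had 0.967 and 1.01 FPKM in the mutant and 1.36 and 0.935 FPKM in the control libraries, on 54 to 83 reads. Only control replicate 1 stood higher, and the log2 fold change of -0.18 ± 0.22 (SE) became 0.073 without that library. *Egr1* (ENSMUSG00000038418, chromosome 18, 34992876 to 34998037, plus strand), an immediate early zinc finger factor, had 0.463 and 0.319 FPKM in the mutant and 0.459 and 0.278 FPKM in the control libraries. It was higher in replicate 1 than in replicate 2 of both groups, and its log2 fold change was 0.08 ± 0.34 (SE).

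Counted over the 10 genes, both mutant libraries were below both control libraries for 2 (*Etv5* and *Spry2*), where 18.3% of all genes tested had this order. The opposite order was seen for 1 (*Etv4*), against 18.2% of all genes tested, and the groups of the other 7 overlapped. At an unadjusted p under 0.05 (limma), 2 members were called and both were lower in mutant lenses, where 2.92% of genes tested were called lower and 3.39% higher. At an adjusted p under 0.05 (limma, Benjamini-Hochberg), 0 members were called, against 0.0375% of genes tested. With limma's voom on the recovered reads, 1 member (*Etv5*) passed an adjusted p under 0.05, against 0.0875% of genes tested, and 3 passed at an unadjusted p under 0.05, the third being *Etv4*, against 7.43% of genes tested. Fold changes were negative for 7 members and positive for 3. Their median log2 fold change was -0.06, beside 0.0041 over all genes tested. Since the genes were selected on this contrast, nothing is read from these counts.

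**Figure D2:**
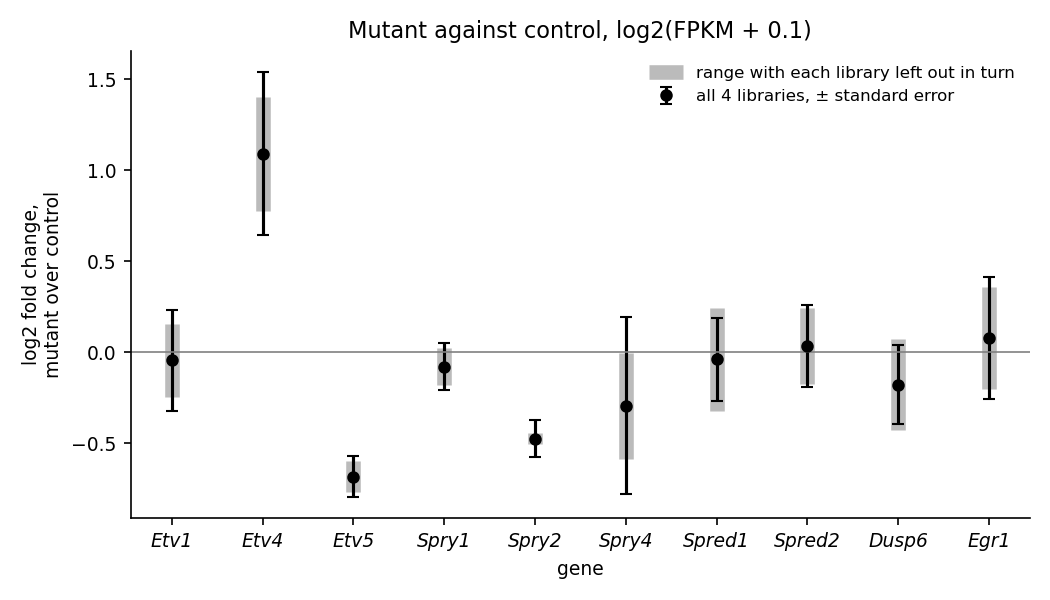
Log2 fold change (mutant over control, log2(FPKM + 0.1) scale) of each of the 10 genes as a point with its standard error, and as a grey bar the range when each library was left out in turn. *Etv5* and *Spry2* lie at -0.68 and -0.47 with narrow ranges, *Etv4* lies at 1.09, and the other 7 lie within 1 standard error of 0.

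The lens epithelium is the proliferating layer of the lens, and its markers were set beside these values. The summed FPKM of 6 epithelial markers was 129 and 153 in the mutant libraries and 145 and 149 in the control libraries, so these sums overlapped. *Foxe3* made up most of each sum, and without it the sums were 25.7 and 31.7 FPKM in the mutant libraries and 35.3 and 30.2 FPKM in the control libraries, again with overlap. Log2 fold changes were negative for 5 of the 6, beside a median of 0.0041 over all genes tested. Those of *Foxe3* (-0.03 ± 0.12 (SE)) and *Gja1* (-0.06 ± 0.12 (SE)) lay within 1 SE of 0. *Pdgfra* and *Trpm3* were lower in both mutant libraries, where 18.3% of all genes tested had this order. The other 4, *Foxe3* among them, overlapped between the groups. *Cdh1* had 5.81 and 10.1 FPKM in the mutant and 12.1 and 8.25 FPKM in the control libraries. The part of epithelial content in the *Etv5* and *Spry2* values was not tested. Endothelial markers summed to 8.62 and 5.65 FPKM in the mutant and 8.45 and 6.79 FPKM in the control libraries, with none of 6 set apart between groups. Without *Cldn5*, the highest of them, the sums were 2.68 and 2.08 FPKM against 3.25 and 2.92 FPKM. Of the 6, 5 had negative log2 fold changes, beside the median of 0.0041 over all genes tested. Pericyte and fibroblast markers summed to 4.86 and 4.37 FPKM for the mutant libraries, below the 5.81 and 5.32 FPKM of the control libraries. The pericyte gene *Rgs5* carried this order, with 3.43 and 2.47 FPKM against 4.6 and 4.3 FPKM, and without it the sums were 1.43 and 1.90 FPKM against 1.21 and 1.02 FPKM. *Col1a1*, a fibroblast collagen gene, had 0.239 and 0.311 FPKM in the mutant libraries and 0.0470 and 0.0744 FPKM in the control libraries. Of the 8 markers, 1 was lower and 2 were higher in both mutant libraries, where 18.3% and 18.2% of all genes tested had these orders. *Lum* was listed at 0 in all 4 libraries. The part of endothelial cells, pericytes and fibroblasts in the *Etv5* and *Spry2* values was not tested.

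The genes most like *Etv5* were sought among 8377 other genes whose mean FPKM reached 1, by the Euclidean distance of centred log2 values over the 4 libraries. The nearest 5 were *Cyp20a1* (distance 0.0716), *Adcy9* (0.118), *Rab4a* (0.125), *Ogdhl* (0.130) and *Polr3b* (0.139). *Adcy9*, an adenylyl cyclase gene, had 0.831 and 0.953 FPKM in the mutant and 1.66 and 1.54 FPKM in the control libraries. Of the other members that could be ranked, *Spry2* lay nearest, at rank 58 (distance 0.266). *Dusp6* lay at rank 2193, *Spry1* at rank 2921 and *Spred1* at rank 4564. With only 4 libraries, these distances describe how close the centred log2 values lay and nothing more.

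Other genes of the pathway were counted in lists that hold no member and were likewise drawn up with earlier results known. Of 96 genes listed, 95 were in the table and 83 were tested, and 0 passed an adjusted p under 0.05 by limma on log2 FPKM or by voom. At an unadjusted p under 0.05, limma called 3 lower (*Dusp8*, *Dusp4* and *Sos2*) and 1 higher (*Ier5*) in mutant lenses, against 2.92% and 3.39% of all genes tested. By voom, 13 of the 83 passed at an unadjusted p under 0.05, against 7.43% of all genes tested. Both mutant libraries were below both control libraries for 22 of the 83 and above for 14, where 18.3% and 18.2% of all genes tested had these orders. The median log2 fold change of the 83 genes was -0.02.

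Among the other dual-specificity phosphatases, which dephosphorylate MAP kinases, 5 of 9 were tested and their median log2 fold change was -0.40. Of these 5, 3 had both mutant libraries below both controls and 1 had them above. Over all genes tested, 18.3% and 18.2% had these orders. *Dusp8*, which acts mainly on JNK and p38, had 1.61 and 2.10 FPKM in the mutant and 3.22 and 2.72 FPKM in the control libraries, on 140 to 305 reads. Its log2 fold change was -0.66 ± 0.18 (SE), with a limma adjusted p of 0.689 and between 0.189 and 0.895 over the alternatives. *Dusp4*, a nuclear phosphatase that ERK signalling induces, had 1.0 and 1.25 FPKM in the mutant and 1.86 and 1.52 FPKM in the control libraries. On the log2 scale its fold change was -0.55 ± 0.19 (SE), with a limma adjusted p of 0.769 and between 0.537 and 0.895 over the alternatives. *Dusp1*, the most abundant of them, had 5.95 and 5.86 FPKM in the mutant and 5.42 and 5.08 FPKM in the control libraries. The 3 below were *Dusp8*, *Dusp4* and *Dusp16*, the 1 above was *Dusp1*, and nothing is read from so few genes.

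Of 22 other immediate early genes, 17 were tested. Both mutant libraries were below both controls for 6 and above for 3, against 18.3% and 18.2% of all genes tested. The median log2 fold change was -0.10. *Ier5*, a growth factor and stress response gene, had 3.75 and 3.68 FPKM in the mutant and 2.26 and 2.93 FPKM in the control libraries (log2 fold change 0.51 ± 0.16 (SE), limma adjusted p = 0.739). *Jund*, the most abundant, encodes an AP-1 subunit and had 12.4 and 12.2 FPKM in the mutant and 12.2 and 10.9 FPKM in the control libraries. *Btg2*, an antiproliferative gene, had 5.91 and 6.29 FPKM against 6.26 and 6.07 FPKM, with overlap.

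Among 9 tested of 11 other FGF and ERK output genes, 2 had both mutant libraries below both controls and none had the opposite order. These orders were seen in 18.3% and 18.2% of all genes tested. The median log2 fold change of the 9 was -0.08. *Ccnd1*, the cyclin D1 gene of entry into the cell cycle, had 5.40 and 7.67 FPKM in the mutant and 10.8 and 8.21 FPKM in the control libraries. On the log2 scale its fold change was -0.54 ± 0.22 (SE), with a limma adjusted p of 0.80. *Epha2*, an ephrin receptor gene abundant in lens, had 11 and 10.5 FPKM in the mutant and 10.7 and 10.7 FPKM in the control libraries.

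The cascade itself was tested for all 23 genes listed, with a median log2 fold change of 0.03. Both mutant libraries were below both controls for 5 and above for 5. The shares over all genes tested, 18.3% and 18.2%, stand beside these counts and those of the lists that follow. *Sos2*, a Ras exchange factor gene, had 2.23 and 2.30 FPKM in the mutant and 2.77 and 3.09 FPKM in the control libraries (log2 fold change -0.35 ± 0.13 (SE), limma adjusted p = 0.782). *Shc1*, an adaptor gene and the most abundant of the cascade, had 57.6 and 59.7 FPKM in the mutant and 50.3 and 54.7 FPKM in the control libraries. *Mapk3*, which encodes ERK1, had 32.7 and 31.4 FPKM against 32.1 and 33.2 FPKM, with overlap. The same order was counted in the other lists, with 2 below and 2 above for 8 brakes on Ras and receptors, and 3 below and 2 above for 13 other ETS factors. For the 7 PDGF and FGF receptor genes tested, 1 was below (*Pdgfra*) and 0 above. *Fgfr3* had 25.0 and 25.1 FPKM in the mutant and 26.3 and 24.9 FPKM in the control libraries, and *Fgfrl1* had 38.7 and 37.8 FPKM against 36.7 and 40.4 FPKM. *Spred3*, the only other Sprouty or Spred gene tested, had 0.343 and 0.370 FPKM in the mutant and 0.306 and 0.236 FPKM in the control libraries.

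**Figure D3:**
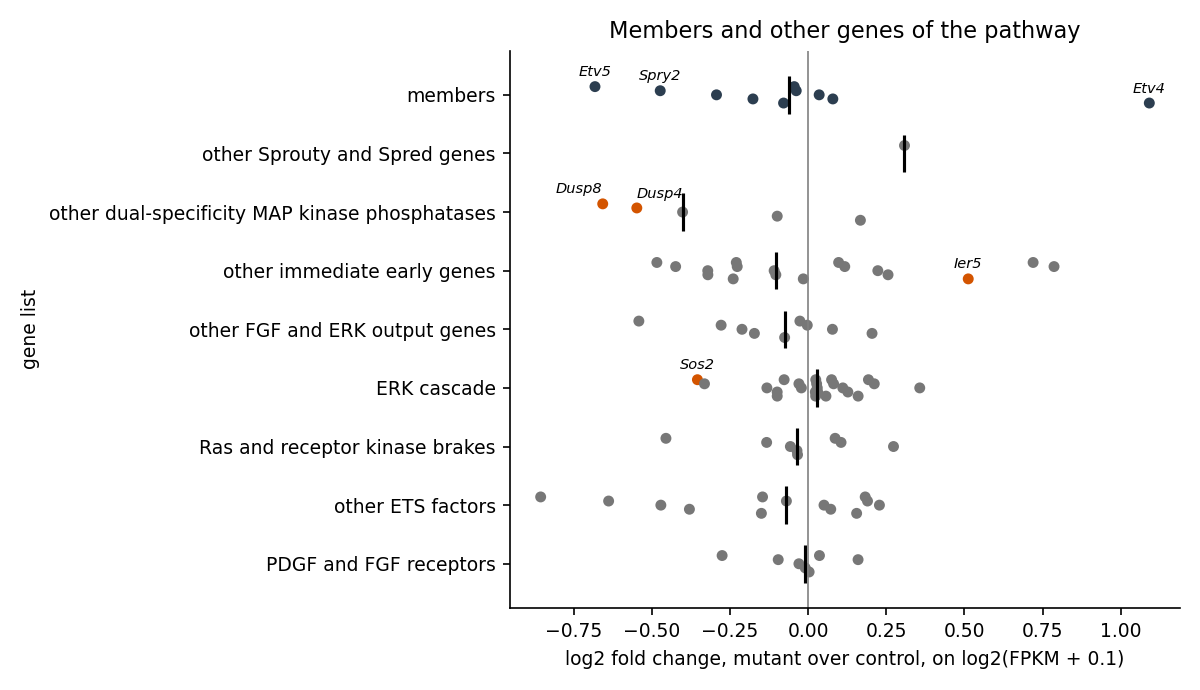
Log2 fold change (mutant over control, log2(FPKM + 0.1) scale) of the 10 members (dark, 3 named) and of every tested gene of the pathway lists, with 1 point per gene, 1 row per list and a vertical bar at each median. Orange marks list genes past an unadjusted p of 0.05 (limma), and the medians lie between -0.40 for the other dual-specificity phosphatases and 0.03 for the ERK cascade, apart from the single *Spred3* at 0.31.

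**Figure D4:**
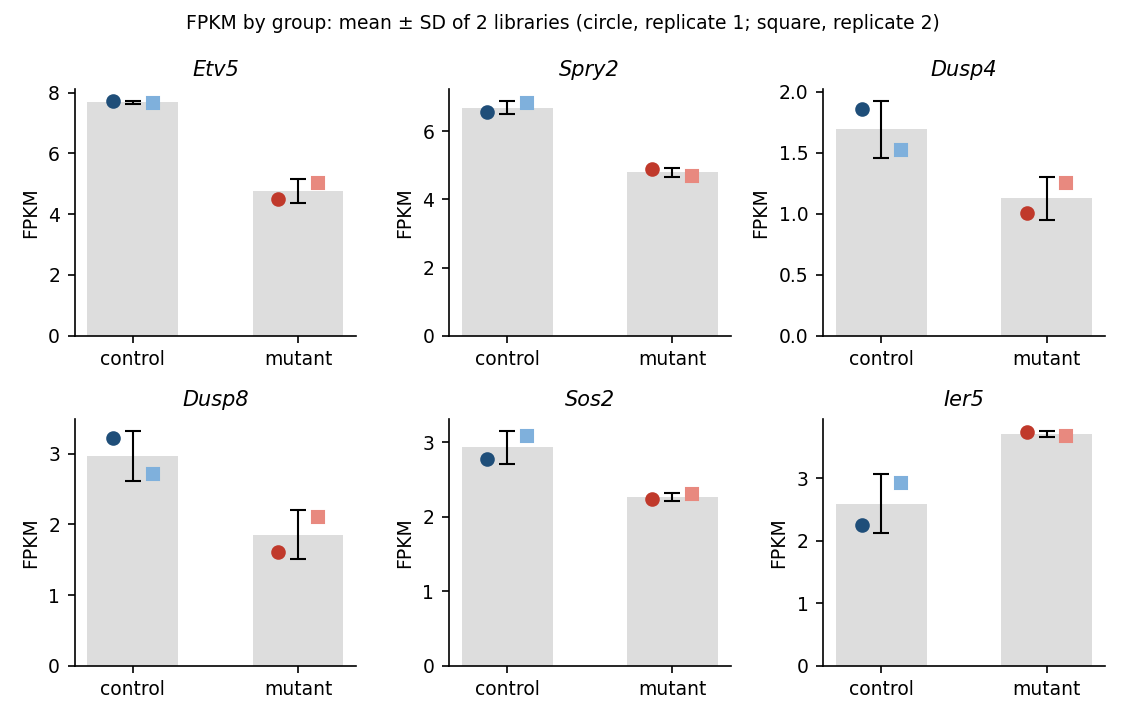
FPKM on a linear axis from 0 for *Etv5*, *Spry2* and the 4 list genes past an unadjusted p of 0.05 (limma), *Dusp4*, *Dusp8*, *Sos2* and *Ier5*. Bars are group means, error bars are 1 SD (n = 2) and points are libraries, and every mutant point lies below every control point except for *Ier5*, where the order is the opposite.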

How the data were processed

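RNA from pooled lenses was sequenced in 4 libraries, 2 mutant and 2 control. Before deposit, the authors' provider aligned the reads with HISAT2 and counted them per gene with featureCounts, and the deposited values are FPKM per gene. Positions are those of build mm39, per the labels. All 4 per-sample columns of the table were used. The members and lists were chosen with earlier results of these data known.

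The deposited FPKM were already scaled to a common median over genes, with the same median ratio of 1.01 in every library. They were therefore used as deposited. The filter kept genes whose mean FPKM was 0.1 or more. These genes were compared on log2(FPKM + 0.1) by limma 3.58.1 (R 4.3.3; lmFit, eBayes with a trend) and Benjamini-Hochberg adjustment over all 15997 genes, with mutant over control as the direction. The authors used DESeq2 on read counts, a count model that was not run on these FPKM. Whole reads recovered from FPKM and gene length gave Poisson intervals and the reads for limma's voom, an alternative. The other alternatives were pseudocounts of 1 and 0.01, no filter, a filter at a mean FPKM of 1, scaling outside crystallin genes, no trend, the replicate number as a block, an *Xist* covariate and leaving out each library. The p-values measure only the spread between these pools. The fits were tested on simulated data. Named genes were all members, list genes past an unadjusted p of 0.05, the 2 most abundant genes of a list, the 5 nearest to *Etv5*, *Pdgfrb* and *S100a4*. *Dusp16*, *Foxe3*, *Gja1*, *Cdh1*, *Trpm3*, *Pdgfra*, *Xist*, *Lum*, *Lim2*, *Cldn5*, *Rgs5*, *Col1a1* and *Gm42922* were named after their values were seen. Promoter windows and motif shares came from RefSeq (GRCm38.p6), and no coordinate was moved between builds. Drawing used Python 3.11.15 and matplotlib 3.10.9.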

Additional observations from a re-analysis of the deposited data

How the results depend on the processing

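The log2 fold changes of *Etv5* and *Spry2* kept their sign in all 13 other settings, and those of *Etv4* and *Spry4* in 12, since both fall under the filter at a mean FPKM of 1. That of *Spry4* was -0.0013 without control replicate 1. The signs of *Etv1*, *Spry1*, *Spred1*, *Spred2*, *Dusp6* and *Egr1* changed only when single libraries were left out. The median over the 10 genes was -0.06 and went from -0.19 to 0.035 when each library was left out, turning positive without control replicate 1. With 1 library left in a group, more members had groups that did not overlap than the 3 with all libraries, since fewer libraries then have to be in order. The share over all genes was not counted in those settings, so nothing is read from this rise. The lone library was assumed to vary like the other group. Members with an unadjusted p under 0.05 (limma) numbered 2 or 3 in every setting with all libraries. Over all genes, those passing ran from 617 of 8378 at a mean FPKM of at least 1 to 1337 of 24534 with no filter. Nothing is read from these counts of members.

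Genes called at an adjusted p under 0.05 numbered 6. There were 2 at a pseudocount of 1, at a pseudocount of 0.01, at a mean FPKM of at least 1, without the trend and with the *Xist* covariate, 1 with no filter and 14 with voom. Leaving out any library left 0 (limma), with 787 to 1465 genes at an unadjusted p under 0.05. Pathway genes at an unadjusted p under 0.05 numbered 4, with 7 after scaling outside crystallin genes, 13 with voom and 0 to 4 when a library was left out. The cause of these shifts was not tested.

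With the replicate number as a block, 3 genes were called in place of 6. Replicates 1 of both groups did not deviate together (r = -0.0051 across 15997 genes of 1 table, which are not independent replicates), so the libraries share only a number. For the 5 members under 100 reads in every library, counting intervals were wide.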
